A study of Mus musculus with 16 samples.

Results

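Vascular endothelial growth factors and their receptors were examined as 9 genes chosen by their roles: the ligands Vegfa, Vegfb, Vegfc and Pgf, the receptors Flt1 (VEGFR1), Kdr (VEGFR2) and Flt4 (VEGFR3), and the co-receptors Nrp1 and Nrp2. These were 9 of the 55487 genes listed for the series, and all 9 had unique molecular identifiers (UMIs, 1 per captured RNA molecule). The choice was made with earlier results of these data known. VEGF ligands bind receptor tyrosine kinases on endothelial cells. Kdr carries most of the signal for proliferation, migration and permeability, Flt1 binds Vegfa, Vegfb and Pgf tightly and also exists as a soluble trap, and Flt4 binds Vegfc and is best known from lymphatic vessels. Neuropilins hold VEGF ligands beside Kdr or Flt4 and also serve as receptors for class 3 semaphorins. In the spinal cord, astrocytes are a known source of Vegfa and blood vessels are the main site of its receptors.

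Single cells were dissociated from mouse spinal cord around a dorsal column lesion at cervical level and captured as droplets with 3′ UMI counting. All mice were 8 to 10 weeks old, carried the tamoxifen-inducible GFAPcreERT2 transgene, and received tamoxifen daily for 7 days from 5 days before surgery. WT mice were Ryk+/+,GFAPcreERT2 and cKO mice were Rykfl/fl,GFAPcreERT2, so that Cre deletes the Wnt receptor Ryk in cells that express the transgene. Cords were taken from uninjured mice (labelled Sham) or after 1 d, 7 d or 14 d of injury, 2 mice per genotype and time, which made 8 conditions and 16 mice. The comparisons asked where the VEGF genes were read out, how they differed after injury, and whether signals from astrocytes to vessels differed between genotypes.

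The deposited matrix held 18203 cells in 17 clusters. The library of WT 1 d replicate 2 held 1 cell with 266 UMIs and was left out, so the WT 1 d group was 1 mouse. The other 15 mice had 208 to 1845 cells and 536263 to 9008729 UMIs each (median 3032957). The replicate 1 libraries of both genotypes at 1 d and 7 d, 4 in all, were shallow, with a median of 414 to 548 UMIs per cell against 1040.5 to 3637 in the other 11 libraries. In all, 166 cell barcodes, in 432 cells, occurred in more than 1 mouse. The 6 pairs of shallow libraries shared 28 to 115 barcodes a pair, and the other 99 pairs shared 0 to 4. For 6 mice the cell names and the sample titles gave different conditions, all replicate 2, whereas the condition in the cell table matched the title in all 16. Titles were followed here, and values under the other reading are given where they turn a direction. Xist stood at 280 to 811 CPM (UMIs of the gene per 1000 × 1000 UMIs) in 5 mice and at 0 to 46.8 CPM in 10, and the high group held 3 of 7 WT and 2 of 8 cKO mice.

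Ryk was read first, as the deleted gene. In Cluster 7 astrocytes it stood at 152 ± 39.4 CPM in WT (SD, n = 7 mice, 123 to 239) and 117 ± 55.4 CPM in cKO (n = 8, 36.1 to 192). The ranges overlapped, and the cKO to WT difference after injury was −0.11 on the log2 scale (SE 0.36, edgeR quasi-likelihood with Benjamini-Hochberg adjusted p = 0.955). In Cluster 5 astrocytes the means were 75.9 ± 31.6 CPM (n = 7) and 77.8 ± 43.8 CPM (n = 7). Reads come from the 3′ end and the floxed exons were not given, so Ryk does not check the genotype labels.

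Cluster names from the cell table were compared with marker lists. All 8 endothelial markers, of which Flt1 is itself 1 of the 9 genes, were highest in Cluster 1, all 8 pericyte and smooth muscle markers in Cluster 9, and all 8 microglial markers in Cluster 6. The 8 astrocyte markers were highest in Cluster 5 or Cluster 7, and 0 of 8 in Cluster 2, which the table also names astrocytes but where Snap25, Gad1, Slc32a1 and Mbp were highest. Cluster 2 is therefore given by its number. Of 4 lymphatic endothelial markers, Ccl21a was highest in Cluster 1, whereas Prox1, Lyve1 and Pdpn were highest elsewhere, so Cluster 1 was read as blood vessel endothelium. Levels below are CPM, the UMIs of a gene scaled to the total UMIs of the same cells, and compare cell types within a gene. Clusters were drawn from the same counts, so their levels are described without a test.

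Vegfa, the ligand of Flt1 and Kdr (chr17:46016993-46032369, minus strand, mm10), was highest in Cluster 7 astrocytes. Its level there was 314 ± 99.5 CPM (SD, n = 15 mice), from 172 to 556 with a median of 309.9, and it was above 0 in every mouse. Myeloid cells (173 ± 308 CPM, n = 5), Cluster 5 astrocytes (150 ± 114 CPM, n = 14) and oligodendrocyte precursors (112 ± 66.4 CPM, n = 14) followed. Cluster 7 exceeded myeloid cells in 4 of 5 mice, by 1.39 ± 1.37 log2 units with 50 CPM added, whereas myeloid cells, Cluster 5 and precursors did not separate beyond their spread. Endothelial cells stood at 3.96 ± 2.49 CPM. Cluster 7 held 45.9% ± 10.5 of each mouse's Vegfa UMIs and Cluster 5 held 13.1% ± 7.79 (n = 15). A Vegfa UMI was found in 483 of 1012 Cluster 7 cells, or 47.7% (exact 95% binomial interval 44.6 to 50.9%, for the sampling of pooled cells only, without the spread between mice). In the 702 cells with at least 1000 UMIs, after these were thinned to 1000, the share was 26.4%. The same shares in endothelial cells, which served as background, were 1.07% of 4201 cells and 0.455% of the 1978 with at least 1000 UMIs, at a median depth over all cells of 890 UMIs against 2882 in Cluster 7.

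Vegfb, a ligand of Flt1 (chr19:6982473-6987651, minus strand), was spread over many cell types. Its highest means were in Cluster 2 (141 ± 83.0 CPM, n = 11), Cluster 5 astrocytes (119 ± 54.6, n = 14) and Cluster 10 microglia (84.5 ± 33.4, n = 14), and these neighbours overlapped. Endothelial cells stood at 26.9 ± 12.8 CPM. Vegfc, a ligand of Flt4 (chr8:54077606-54187096, plus strand), was instead highest in endothelial cells themselves, at 74.1 ± 39.7 CPM (24.8 to 156, n = 15). Pericytes followed at 41.5 ± 42.1 CPM and were lower in 11 of 15 mice. Vegfd, the other ligand of Flt4, was not among the 9 genes and was counted in a pathway list below. Endothelial cells held 69.9% ± 10.8 of the Vegfc UMIs. Placental growth factor, Pgf (chr12:85166635-85177790, minus strand), had 563 UMIs in all. Fibroblasts (47.0 ± 45.9 CPM, n = 9) and pericytes (39.5 ± 30.8, n = 15) led and did not separate, with fibroblasts higher in 5 of 9 mice. A Pgf UMI was seen in 14.2% of fibroblasts and 8.49% of pericytes, at median depths of 2498 and 1420 UMIs, and in 0.228% of Cluster 6 microglia as background. In cells with at least 1000 UMIs, thinned to 1000, the fibroblast and pericyte shares were 4.97% and 3.35%.

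Flt1 (chr5:147561604-147726011, minus strand) had the most UMIs of the receptors, 81737, and its soluble and membrane forms could not be told apart from gene counts. Endothelial cells stood at 5887 ± 1400 CPM (n = 15), from 3307 to 7204 with a median of 6379. Pericytes followed at 2437 ± 634 CPM and were lower in 15 of 15 mice. A Flt1 UMI was found in 3420 of 4201 endothelial cells, or 81.4% (80.2 to 82.6%, again without the spread between mice), and in 4.74% of Cluster 7 astrocytes. Kdr, the main signalling receptor (chr5:75932827-75978458, minus strand), stood at 483 ± 136 CPM in endothelial cells (265 to 697) and 172 ± 87.9 CPM in pericytes. A Kdr UMI was found in 38.7% of endothelial cells and 0.692% of Cluster 7 cells. In cells with at least 1000 UMIs, thinned to 1000, the endothelial and Cluster 7 shares were 93.8% and 1.99% for Flt1 and 35.0% and 0.427% for Kdr. Flt4, the receptor of Vegfc (chr11:49609263-49652739, plus strand), stood at 96.5 ± 21.5 CPM in endothelial cells (51.9 to 139) and 38.8 ± 18.2 CPM in pericytes. For Kdr and Flt4, too, endothelial cells were higher than pericytes in 15 of 15 mice. Endothelial cells held 83.9% ± 4.73 of the Flt1 UMIs, 85.7% ± 5.46 of the Kdr UMIs and 81.2% ± 6.97 of the Flt4 UMIs.

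The receptor levels in pericytes ran beside endothelial markers in the same cells. The pericyte mean was 41.4% of the endothelial mean for Flt1, 35.7% for Kdr and 40.2% for Flt4. For 7 endothelial markers that share ranged from 31.8% (Pecam1) to 43.6% (Ly6c1), and 330 of 836 pericytes held a UMI of Cldn5, Pecam1, Cdh5 or Ly6c1. Among the other pericytes (n = 14 mice), a setting chosen after seeing the data, Flt1 stood at 228 CPM, Kdr at 18.4, Flt4 at 3.62 and Nrp1 at 148. A further 1155 endothelial cells had first been placed in Cluster 2 by the authors. Over 14 mice with both kinds, these held 2777 ± 2787 CPM of Flt1 against 6008 in the other endothelial cells, with the moved cells higher in 5 of 14 mice, and 120 against 528 CPM of Kdr, which was lower in them in 14 of 14 mice. Vegfb was higher in the moved cells in 12 of 14 mice (84.2 against 20.2 CPM).

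Nrp1, the co-receptor for Vegfa and Sema3a (chr8:128358604-128503363, plus strand, with the microRNA gene Mir1903 inside it), had a wider range than the kinases. Endothelial cells led at 409 ± 117 CPM, followed by fibroblasts (238 ± 82.3, n = 9), pericytes (233 ± 83.5), Cluster 6 microglia (211 ± 84.9), Cluster 10 microglia (191 ± 105) and Cluster 7 astrocytes (159 ± 45.2). Endothelial cells exceeded fibroblasts in 8 of 9 mice, by 0.60 ± 0.38 log2 units, and the next 3 cell types did not separate. Nrp2, the co-receptor for Vegfc and Sema3f (chr1:62703285-62818695, plus strand, overlapping Gm37121), was highest in Cluster 10 microglia at 178 ± 84.3 CPM (n = 14). Endothelial cells followed at 130 ± 41.6 CPM and were lower in 9 of 14 mice, by 0.28 ± 0.55 log2 units, within the spread. Cluster 6 microglia stood at 96.6 ± 31.9 CPM and Cluster 7 astrocytes at 20.1 CPM. Endothelial cells held 49.1% ± 10.5 of the Nrp1 UMIs but 36.6% ± 10.8 of the Nrp2 UMIs, with 13.1% and 10.2% of Nrp2 in Clusters 10 and 6.

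Across the 17 cluster means, the genes with the most similar profiles were found among 10194 genes by Pearson's r of log2 values, a description over clusters that share the same libraries. Flt1 was closest to Slco1a4 (r = 0.978), Adgrl4 (0.976) and Emcn (0.976), and Kdr to Slc39a10 (0.909), Egfl7 (0.903) and Kank3 (0.897). Flt4 was closest to Mmrn2 (0.991), She (0.987) and Adcy4 (0.978), and Vegfc to Kif26a (0.933), Edn3 (0.924) and Unc45b (0.923). The profile of Vegfa lay nearest to Sh3pxd2b (0.866), Sema4a (0.846) and Sycp2 (0.842). Nrp1 was nearest to Clip1 (0.862) and Nrp2 to Psma1 (0.847), whereas Pgf was nearest to Zic1 (0.900) and Vegfb to mt-Atp6 (0.833). Among the 9 genes, Flt1 and Flt4 were most alike (0.845), and Vegfa and Kdr were least alike (−0.55). The r of Vegfa was −0.33 with Flt1, −0.34 with Flt4 and −0.49 with Nrp2.

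To compare conditions, UMIs were summed per mouse within 10 cell classes and tested with edgeR over all genes of a class. Microglia were Clusters 6 and 10 together and oligodendrocytes Clusters 4 and 8. All contrasts with uninjured cords shared the same uninjured mice. The 1 d contrasts and the means over injured times also rested on the 1 WT mouse at 1 d. Members that passed the filter on low counts were 8 in endothelial cells (all but Vegfa), 7 in pericytes, 6 each in Cluster 5, neurons and oligodendrocytes, 5 in microglia, 4 each in Cluster 7, precursors and fibroblasts, and 3 in immune cells. In Cluster 7 those were Vegfa, Vegfb, Flt1 and Nrp1.

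After injury, 0 of 106 tests of these genes passed an adjusted p of 0.05 in edgeR (quasi-likelihood, Benjamini-Hochberg). Unadjusted p was under 0.05 in 21, or 19.8%, against 6.94% over all genes. As the genes were chosen with earlier results of these data known, this share and those below are descriptive only. DESeq2 called 1, Nrp1 in microglia at 7 d, where it called 0.410% of all genes, against 0.149% over all classes after injury. Between genotypes edgeR called 0 of 173, with an unadjusted p under 0.05 in 9 (5.20%) against 2.96% over all genes, and 0 calls by DESeq2. For genotype by injury edgeR called 0 of 30, with an unadjusted p under 0.05 in 3 (10%) against 3.90% over all genes, and 0 calls by DESeq2. The background of called genes was low as well. In microglia edgeR called 0.248% (1 d), 0.108% (7 d) and 0.345% (14 d) of all genes, and in endothelial cells 0.0091% (1 d) and 0% later. In Cluster 7 it called 0.188% (1 d), 0.0377% (7 d) and 0.188% (14 d), then 0.0126% between genotypes over the 3 injured times, 0.0502% between genotypes at 7 d, 0.0377% at 14 d, and 0.0251% for genotype by injury. It called 0.0252% in Cluster 5 at 1 d, 0.00977% in neurons over the 3 injured times, and 0.0145% in pericytes between genotypes at 7 d and again at 14 d. All other contrasts called 0% of genes.

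Vegfa in Cluster 7 astrocytes was the astrocyte source of interest. Uninjured WT mice stood at 556 and 319 CPM (163 and 44 UMIs) and uninjured cKO mice at 235 and 309.9. At 1 d the WT mouse stood at 258 CPM and the cKO mice at 361 and 172. At 7 d the WT values were 372 and 226 and the cKO values 280.3 and 349.6. At 14 d they were 188 and 386 in WT and 423 and 271 in cKO. The highest value was an uninjured WT mouse. Without injury both WT mice lay above both cKO mice, and at 1 d, 7 d and 14 d the genotypes overlapped. The injured cKO to WT difference was 0.18 on the log2 scale (SE 0.30, edgeR quasi-likelihood with Benjamini-Hochberg adjusted p = 0.912), and the uninjured one was −0.76 (SE 0.40, adjusted p = 1). Against uninjured cords, Vegfa differed by −0.83 at 1 d (SE 0.39, unadjusted p = 0.0390, edgeR Benjamini-Hochberg adjusted p = 0.758), −0.35 at 7 d and −0.12 at 14 d, none past the threshold.

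**Figure D1:**
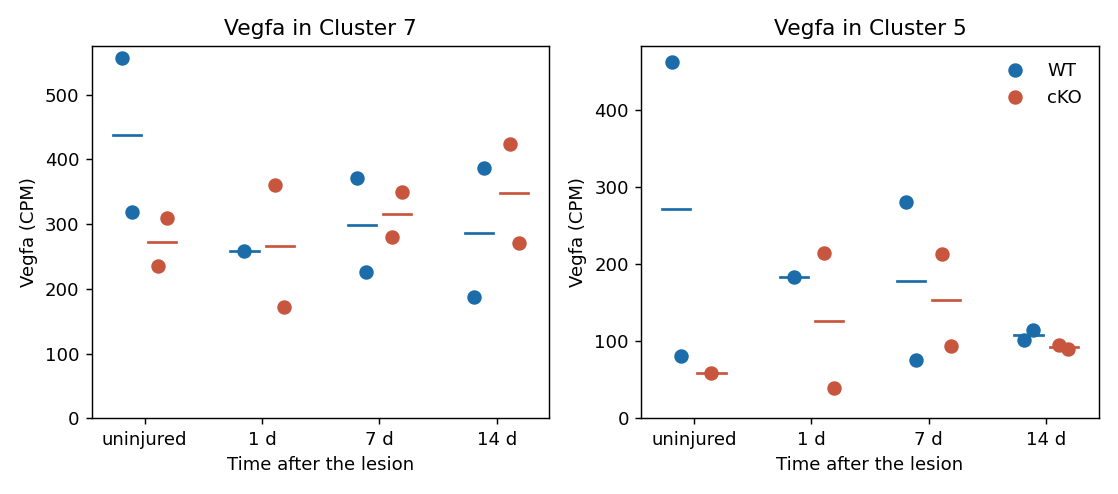
Vegfa in CPM (y axis) in Cluster 7 and Cluster 5 astrocytes by time after injury, with 1 point per mouse, WT in blue, cKO in red and a line at each mean. In Cluster 7 the injured mice of both genotypes lie between 172 and 423 and overlap.

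In Cluster 5 astrocytes, Vegfa stood at 463 and 80.3 CPM in uninjured WT and 59.3 in the uninjured cKO mouse with enough cells. At 1 d it was 184 in WT and 214 and 39.5 in cKO, at 7 d 281 and 76.3 in WT and 213 and 93.6 in cKO, and at 14 d 102 and 114 in WT and 95.3 and 90.6 in cKO. The values over 180 came from 4 shallow libraries, with 3 to 6 UMIs each, and from 1 uninjured WT mouse with 30 UMIs. The injured cKO to WT difference was −0.39 (SE 0.57, edgeR quasi-likelihood with Benjamini-Hochberg adjusted p = 0.967).

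The other ligands differed in single contrasts that did not pass adjustment. Vegfb in endothelial cells ran from 16.5 to 59.3 CPM in the 4 uninjured mice (median 38.2), from 22.7 to 41.6 at 1 d, from 14.9 to 29.8 at 7 d and from 18.5 to 25.6 at 14 d. Of the uninjured mice, 3 of 4 lay above all mice at 7 d and 14 d, and the lowest lay among the mice at 7 d. The difference from uninjured was −1.33 at 7 d (SE 0.45) and −1.17 at 14 d (SE 0.40), with edgeR Benjamini-Hochberg adjusted p of 0.546 and 0.657, and at 7 d it was 0.17 under the conditions in the cell names. At 14 d it was called with the animal number series in the fit (−1.53, adjusted p = 0.0238), within an edgeR adjusted p of 0.0238 to 1 over the alternatives. Endothelial cells moved from Cluster 2 held more Vegfb than the other endothelial cells (84.2 against 20.2 CPM). Whether the share of moved cells in each mouse contributed to these differences was not tested. In Cluster 7, Vegfb stood at 64.8 to 130.4 CPM uninjured. It stood at 26.5 to 56.1 at 7 d and 48.0 to 51.1 at 14 d, and neither range overlapped uninjured. The 1 d range (32.2 to 72.1) overlapped uninjured. Both ends of the 7 d range came from shallow libraries at under 3 UMIs. There 3 UMIs would be 79.6 (WT) and 84.1 CPM (cKO), above the lowest uninjured value. The differences at 7 d and 14 d were −0.99 (SE 0.38) and −0.79 (SE 0.34), with edgeR Benjamini-Hochberg adjusted p of 0.432 and 0.567.

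Endothelial Vegfc stood at 28.2 and 60.2 CPM in uninjured WT and at 146 and 120.4 in uninjured cKO mice. After injury WT mice stood at 91.0 (1 d), 65.5 and 156 (7 d) and 37.5 and 65.1 (14 d), and cKO mice at 59.5 and 36.8, 24.8 and 78.1, and 70.9 and 72.4. Both cKO mice lay above both WT mice without injury and at 14 d, the WT mouse lay above both cKO mice at 1 d, and the genotypes overlapped at 7 d. The uninjured cKO to WT difference was 1.57 (SE 0.54, edgeR quasi-likelihood with Benjamini-Hochberg adjusted p = 1) and the genotype by injury difference was −2.04 (SE 0.63, adjusted p = 1). Pgf in endothelial cells rested on 66 UMIs. The 3 mice at 1 d held 17.1, 39.7 and 62.4 CPM (3, 8 and 39 UMIs), and the 12 others 0 to 6.23. The 1 d values were thus the 3 highest, but the 17.1 and 39.7 came from shallow libraries. The shallow libraries at 7 d held 0 UMIs, and 3 UMIs there would be 17.9 (WT) and 14.9 CPM (cKO). The 1 d difference was 3.74 (SE 1.17, unadjusted p = 0.00589, edgeR Benjamini-Hochberg adjusted p = 0.923), and its adjusted p ran from 0.049 to 1 over the alternatives. Pericyte Pgf stood at 32.2 to 84.2 CPM in 4 uninjured mice. It stood at 0 to 51.8 at 1 d, 0 to 30.7 at 7 d and 20.9 to 119.5 at 14 d. Only the 7 d range lay apart from uninjured, by a narrow gap at few UMIs. The lowest uninjured value was 1 UMI in 12 cells, and the mice at 7 d held 0, 1, 6 and 8 UMIs. The 7 d difference of pericyte Pgf was −1.66 (SE 0.69, unadjusted p = 0.0222, edgeR Benjamini-Hochberg adjusted p = 0.996).

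Flt1 in endothelial cells stood at 5850 and 3307 CPM in uninjured WT and 7182 and 3643 in uninjured cKO mice. At 1 d it was 4667 in WT and 5746 and 3627 in cKO, at 7 d 6273 and 6981 in WT and 6485 and 7163 in cKO, and at 14 d 6379 and 7204 in WT and 6696 and 7102 in cKO. The lowest of the 8 mice at 7 d and 14 d was 6273 CPM, the highest of the 3 at 1 d was 5746, and uninjured mice spanned both. Differences from uninjured were −0.24 at 1 d, 0.24 at 7 d and 0.29 at 14 d (SE 0.31, 0.28 and 0.28), with edgeR Benjamini-Hochberg adjusted p of 0.963, 0.792 and 0.812. The injured cKO to WT difference of Flt1 was 0.06 (SE 0.24, edgeR adjusted p = 1).

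Kdr stood at 455 and 369.5 CPM in uninjured WT and 407 and 493 in uninjured cKO endothelial cells. At 1 d it was 273 in WT and 421 and 265 in cKO, and at 7 d 482 and 697 in WT and 366 and 534 in cKO. At 14 d all 4 mice lay between 591 and 684 CPM, above the 4 uninjured mice, and the 2 lowest of all 15 mice were at 1 d. The differences were −0.72 at 1 d (SE 0.30, unadjusted p = 0.0298, edgeR Benjamini-Hochberg adjusted p = 0.923), 0.01 at 7 d and 0.29 at 14 d. The 1 d difference was below 0 in all 25 refits under the alternatives, from −0.89 to −0.15. Flt4 ranged from 51.9 to 107.5 CPM uninjured, 87.9 to 139 at 1 d, 98.6 to 124 at 7 d and 83.6 to 103 at 14 d, with overlap at each time. Its differences were 0.27, 0.27 and 0.13, and none of these had an unadjusted p under 0.05 by edgeR. Between genotypes after injury, Kdr differed by 0.04 and Flt4 by 0.15.

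In endothelial cells, Nrp1 ran from 264 to 499 CPM uninjured, 232 to 347 at 1 d, 375 to 603 at 7 d and 434 to 559.5 at 14 d. Its differences from uninjured were −0.38, 0.26 and 0.30, with edgeR Benjamini-Hochberg adjusted p of 0.933, 0.722 and 0.766. Endothelial Nrp2 stood at 111 and 66.4 CPM in uninjured WT and 146 and 62.7 in uninjured cKO mice, against 138 and 185 in WT and 218 and 144 in cKO at 14 d. 1 uninjured mouse lay within the 14 d range. The 14 d difference was 0.70 (SE 0.25, unadjusted p = 0.0138, edgeR Benjamini-Hochberg adjusted p = 0.657). The median over the 8 genes tested in endothelial cells was −0.31 at 1 d, 0.12 at 7 d and 0.21 at 14 d, against −0.09, −0.04 and −0.01 over all genes tested.

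In microglia, the resident macrophages, Nrp1 stood at 104.8 and 82.6 CPM in uninjured WT and 80.5 in the 1 uninjured cKO mouse with enough microglia. At 1 d it was 277 in WT and 226 and 133 in cKO, at 7 d 281 and 305 in WT and 249.8 and 258 in cKO, and at 14 d 136 and 248 in WT and 263 and 269 in cKO. All 11 injured mice lay above all 3 uninjured mice, with means of 241 ± 56.2 and 89.3 ± 13.4 CPM. The differences were 1.19 at 1 d (SE 0.38), 1.60 at 7 d (SE 0.34) and 1.36 at 14 d (SE 0.33). The edgeR quasi-likelihood p values after Benjamini-Hochberg adjustment were 0.179, 0.0859 and 0.088, just above the threshold at 7 d and 14 d. DESeq2 gave 1.54 at 7 d with an adjusted p of 0.0332, and over all alternatives the 7 d adjusted p ran from 0.0175 to 0.69. Without the 4 shallow libraries the 7 d difference was 1.59 with an adjusted p of 0.475.

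Nrp2 in microglia stood at 62.1 and 82.6 CPM in uninjured WT and 57.5 in uninjured cKO. At 1 d it was 194 in WT and 205 and 165 in cKO, at 7 d 136 and 163 in WT and 89.0 and 124 in cKO, and at 14 d 100.1 and 156 in WT and 167 and 112 in cKO. Again all 11 injured mice lay above the 3 uninjured ones, by 1.43, 0.95 and 1.06 on the log2 scale (SE 0.41, 0.37 and 0.36), with edgeR Benjamini-Hochberg adjusted p of 0.133, 0.479 and 0.257. The edgeR background of called genes in microglia was 0.248%, 0.108% and 0.345% at these times. Over the 5 genes tested the median difference was 1.19, 0.78 and 1.06, against 0.02, 0.17 and 0.18 over all genes.

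The make-up of the microglial class varied between mice. Cluster 10 held 14.1, 41.8 and 42.1% of microglia in the 3 uninjured mice, and 25.5 to 55.7% (1 d), 28.9 to 47.5% (7 d) and 44.0 to 62.5% (14 d) after injury. Within Cluster 6, Nrp1 stood at 102 ± 6.72 CPM uninjured (n = 3), 195 ± 74.2 at 1 d (n = 3), 305 ± 46.4 at 7 d (n = 4) and 209.6 ± 38.4 at 14 d (n = 4). All injured means there were above the uninjured mean. Whether the make-up of the class contributed to its Nrp1 difference was not tested. Within Cluster 10 the Nrp1 means were 40.1 CPM uninjured, from 3 UMIs, and 238, 217 and 241 after injury. Nrp2 within Cluster 6 stood at 69.8, 140.1, 93.7 and 87.0 CPM, and within Cluster 10 at 78.2, 276, 186 and 171, with the highest mean at 1 d in both.

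Flt1 was also read in microglia, from 15.02 to 69.0 CPM in 3 uninjured and 34.3 to 188 CPM in 11 injured mice, which overlapped. Its differences were 1.94 at 1 d (SE 0.58), 0.63 at 7 d (SE 0.55) and 1.62 at 14 d (SE 0.50), with edgeR Benjamini-Hochberg adjusted p of 0.159, 0.782 and 0.195. Within Cluster 6 the Flt1 means were 26.8 CPM (uninjured), 149 (1 d), 45.3 (7 d) and 22.3 (14 d), and within Cluster 10 they were 65.7, 127, 85.9 and 184, so the 14 d mean was above uninjured in Cluster 10 only. The summed level of 7 endothelial markers in the same cells had medians of 46.6 CPM (uninjured), 177 (1 d), 107 (7 d) and 30.7 (14 d). Without cells with endothelial UMIs the Flt1 log2 fold change in microglia was 1.37 at 1 d and 2.70 at 14 d (edgeR adjusted p = 0.544 and 0.108), within adjusted p of 0.0597 to 0.544 and 0.0243 to 0.387 over the alternatives. Between genotypes, none of the 5 microglial genes had an unadjusted p under 0.05 by edgeR over the injured times, at 7 d or at 14 d, and at 1 d and without injury 1 genotype had only 1 mouse.

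Flt1 in Cluster 7 astrocytes rested on single libraries. Of 266 UMIs, WT 14 d replicate 2 held 151 (259 CPM), and the other 14 mice stood at 0 to 137 CPM. At 14 d the other WT mouse stood at 17.9 CPM and the cKO mice at 2.84 and 53.3. The cKO to WT difference at 14 d was −2.26 (SE 0.56, edgeR quasi-likelihood with Benjamini-Hochberg adjusted p = 0.205), but 0.82 without that library and 2.97 under the conditions in the cell names. With the replicate number as a block it was −2.27 with an adjusted p of 0.00875, within a range of 3.48e-05 to 1 over the alternatives. Uninjured mice stood at 0 and 7.24 CPM in WT and 13.04 and 123 in cKO, a difference of 4.87 (SE 1.27, edgeR Benjamini-Hochberg adjusted p = 0.400) with 1 UMI in the WT group. Over the alternatives it ran from 2.09 to 7.63 with adjusted p from 0.00471 to 1, and was called in some of them. Against uninjured cords the 14 d difference was 2.21 (SE 0.73, edgeR Benjamini-Hochberg adjusted p = 0.338), and it was −0.09 without cells that held an endothelial UMI. With WT mice alone it was called (5.78, edgeR Benjamini-Hochberg adjusted p = 0.00292), and without WT 14 d replicate 1 it was 2.55. Summed endothelial markers in Cluster 7 had medians of 38.3 CPM uninjured, 213 at 1 d, 57.4 at 7 d and 100.4 at 14 d.

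Nrp1 in Cluster 7 astrocytes stood at 78.4 and 145 CPM in uninjured WT and 235 and 203 in uninjured cKO mice. At 1 d it was 226 in WT and 108 and 148 in cKO, at 7 d 159 and 216 in WT and 140.2 and 145 in cKO, and at 14 d 139 and 185 in WT and 131 and 122 in cKO. The genotypes did not overlap at any time, with cKO above WT uninjured and below WT after injury. The values rested on 3 to 7 UMIs in each shallow library. Groups with so few mice can separate by chance, and the share of all genes that separated in this way was not computed. No genotype effect is read from the separation. The cKO to WT difference was 0.93 uninjured (SE 0.43, unadjusted p = 0.0358) and −0.42 over the injured times (SE 0.30), with edgeR Benjamini-Hochberg adjusted p of 1 and 0.863. Genotype by injury was −1.35 (SE 0.53, unadjusted p = 0.0131, edgeR Benjamini-Hochberg adjusted p = 0.858).

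In oligodendrocytes, Flt1 stood at 55.0 and 248 CPM in uninjured WT and 221 and 128 in uninjured cKO mice, and at 8.08 to 134 CPM in the 11 injured mice. The difference over the injured times was −1.87 (SE 0.56, edgeR quasi-likelihood with Benjamini-Hochberg adjusted p = 0.771), and it was called with no filter on low counts (−1.73, adjusted p = 0.00407), within a range of 0.00407 to 1 over the alternatives. The summed endothelial markers there had medians of 377 CPM uninjured and 104, 127 and 80.1 after injury. Without cells with endothelial UMIs the Flt1 log2 fold change in oligodendrocytes over the injured times was −1.61 (edgeR adjusted p = 0.882). In neurons Flt1 had means of 337 CPM (uninjured), 207 (1 d), 353 (7 d) and 369 (14 d), and the WT 1 d mouse had 0 UMIs in 18 cells. The Flt1 differences, −1.92 after injury and 3.54 between genotypes, included that library, and these means over the 3 injured times could not be taken without it. Over all genes the medians of these neuronal contrasts were −0.82 and 2.01, and under the conditions in the cell names Flt1 stood at 0.44 and −0.14.

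Genes that act with the VEGF receptors were read from 5 lists, with CPM scaled by TMM. These lists, too, were chosen with earlier results known, so their shares against all genes are descriptive only. Among 20 partners and endothelial targets of VEGFR2, edgeR called 0 of 513 tests, with 16 up and 18 down unadjusted (p under 0.05; 6.63% against 4.35% of all genes in the same classes and contrasts) and 0 by DESeq2. The most abundant in endothelial cells were the receptor phosphatase Ptprb (1627 ± 357 CPM, n = 15), VE-cadherin Cdh5 (477 ± 70.5), endothelial nitric oxide synthase Nos3 (227 ± 30.6) and Notch1 (189 ± 30.7). Cdh5 differed from uninjured by −0.07, −0.18 and 0.02 at 1 d, 7 d and 14 d in the fit. Its CPM without TMM had means over mice of 436 uninjured and 475, 463 and 524 after injury. The direction at 1 d and 7 d thus differed between the fit and these means, and the scaling alone was not tested. Ptprb differed by −0.37, 0.23 and 0.23 in the fit. Neuropilin ligands and plexins (13 genes) gave 0 calls by edgeR in 304 tests, with 13 up and 9 down unadjusted (7.24% against 4.33% of all genes) and 0 by DESeq2. Endothelial cells held Sema3c (936 ± 191 CPM), Plxna2 (357 ± 127), Plxnd1 (101 ± 42.0) and Plxna4 (84.8 ± 27.1). The semaphorin receptor Plxnd1 differed by 0.67 at 14 d (SE 0.31, edgeR Benjamini-Hochberg adjusted p = 0.657).

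Angiopoietins and Tie receptors, the second receptor kinase system of vessels, gave 0 calls in 110 tests of 5 genes by edgeR, with 1 up and 2 down unadjusted (2.73% against 3.86% of all genes) and 0 by DESeq2. Tek stood at 588 ± 71.3 CPM and Tie1 at 257 ± 61.3 CPM in endothelial cells, and the Tek ligand Angpt1 at 137 ± 39.6 CPM in Cluster 7 astrocytes. Hypoxia sensing (8 genes) gave 0 calls in 298 tests by edgeR, with 8 up and 1 down unadjusted (3.02% against 4.46% of all genes) and 0 by DESeq2. Epas1 led in endothelial cells (1366 ± 225 CPM) and Hif1a in microglia (183 ± 71.8 CPM, n = 14). Microglial Hif1a differed from uninjured by 0.07 at 1 d, 0.80 at 7 d and 1.32 at 14 d (SE 0.39, 0.32 and 0.31), with edgeR Benjamini-Hochberg adjusted p of 0.991, 0.495 and 0.0749. Hypoxia targets (14 genes) gave 0 calls in 482 tests by edgeR, with 24 up and 11 down unadjusted (7.26% against 4.40% of all genes) and 1 by DESeq2. That call was Ldha, lactate dehydrogenase, in microglia at 1 d (1.96, DESeq2 adjusted p = 0.0232), where DESeq2 called 1.11% of all genes and edgeR gave 1.93 (SE 0.51, Benjamini-Hochberg adjusted p = 0.103). In Cluster 7, where Vegfa was highest, the glucose transporter Slc2a1 differed by −0.57, −0.73 and −0.69, and Hif1a by −0.39, 0.10 and −0.13.

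Promoter sequence was available for 9 of 9 genes, with 11 transcription starts, from RefSeq (GRCm38.p6). The 250 bases before the first start of Vegfa (chr17:46032378-46032627, minus strand), Flt1 (chr5:147726012-147726261, minus strand) and Kdr (chr5:75978456-75978705, minus strand) are given because these genes are the main ligand and its receptors, which peaked in different cells; they were chosen after the levels were seen. The motifs were GGAA, the core bound by ETS factors of endothelial cells, CCGGAA, which contains GGAA, and ACGTG, the core bound by hypoxia-inducible factors, each searched on both strands. Capitals mark GGAA or its complement TTCC.
Vegfa: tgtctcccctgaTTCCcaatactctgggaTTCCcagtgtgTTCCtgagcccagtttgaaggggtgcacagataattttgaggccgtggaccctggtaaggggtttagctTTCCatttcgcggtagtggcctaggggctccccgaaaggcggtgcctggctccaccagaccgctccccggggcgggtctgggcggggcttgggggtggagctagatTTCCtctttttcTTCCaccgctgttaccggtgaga
Flt1: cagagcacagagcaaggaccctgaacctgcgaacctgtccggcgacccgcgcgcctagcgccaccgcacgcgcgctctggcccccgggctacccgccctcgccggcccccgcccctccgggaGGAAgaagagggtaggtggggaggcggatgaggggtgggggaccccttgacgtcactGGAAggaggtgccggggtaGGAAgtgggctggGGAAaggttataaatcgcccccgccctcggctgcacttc
Kdr: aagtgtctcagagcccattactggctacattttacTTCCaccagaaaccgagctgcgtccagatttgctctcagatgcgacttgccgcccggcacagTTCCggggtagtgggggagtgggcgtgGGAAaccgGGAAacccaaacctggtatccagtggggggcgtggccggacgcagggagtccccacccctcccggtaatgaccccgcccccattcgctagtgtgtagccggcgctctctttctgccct
GGAA occurred 6 times before Vegfa, 4 times before Flt1 and 4 times before Kdr, and in 9 of the 11 starts. It is present in 93.4% of 32851 promoters of this length. CCGGAA occurred in 1 start, Kdr, against 3952 of all promoters, and ACGTG in 1, the other Vegfa start, against 16.6%. A match describes the letters of the window and is not evidence of binding.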

How the data were processed

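The authors mapped reads to mm10 with Cell Ranger, kept cells by mitochondrial share and gene number, joined them with Seurat and Harmony and named Leiden clusters. The deposited counts are whole UMIs per gene and cell, and were used as they stand. Doublets were not called here, and UMIs from free RNA were not removed. UMIs were summed per mouse and class with at least 10 cells, and edgeR 4.0.16 (TMM, filterByExpr, quasi-likelihood, 8 group means) tested them, with Benjamini-Hochberg adjustment over all genes of a class and contrast. DESeq2 1.42.0 served as the alternative. R 4.3.3, limma 3.58.1, Python 3.11.15, numpy 2.4.6, pandas 2.3.3, scipy 1.17.1 and matplotlib 3.10.9 were used. The 9 genes and the pathway lists were chosen with earlier results of these data known. Of each list, genes past the threshold and at most 4 more by highest mean CPM in a class were named. Replicate number might pair mice, as it equals the batch in the cell table in 16 of 16 mice. Deviations of replicate 1 from its condition mean, over all genes tested, were compared between pairs of conditions. The median Pearson's r was 0.079 in endothelial cells (21 pairs) and 0.0524 in microglia (15 pairs). It ran from −0.240 to 0.579 and from −0.194 to 0.368, and was over 0.1 in 10 and 6 pairs. On the low medians no block was fitted, although some pairs were alike. With the block, the genotype difference of Flt1 in Cluster 7 at 14 d was called (−2.27, edgeR Benjamini-Hochberg adjusted p = 0.00875). Promoters came from RefSeq (GRCm38.p6) and gene positions from GENCODE M21.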

Additional observations from a re-analysis of the deposited data

How the results depend on the processing

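Counts of called genes were repeated under other choices, given here with the share of all genes called. After injury 0 became 1 with DESeq2 (0.149%), 5 with no filter on low counts (0.218%; Pgf in endothelial cells at 1 d, Nrp1 in microglia at 7 d and 14 d, Flt1 in microglia at 14 d and in oligodendrocytes), 2 with the animal number series in the fit (0.803%; endothelial Vegfb and microglial Nrp1 at 14 d) and 1 with WT mice alone (0.0259%; Flt1 in Cluster 7 at 14 d). Between genotypes 0 became 2 with no filter (0.0335%), 2 with at least 30 cells per mouse and class (0.00845%), 1 with the replicate block (0.0124%; Flt1 in Cluster 7 at 14 d, −2.27; the block changed no other call) and 1 with the animal number series (0.0174%). Leaving out 1 mouse at a time gave 0 to 1 after injury, 0 to 2 between genotypes and 0 to 0 for genotype by injury, which was 0 throughout. Under the conditions in the cell names, 0.17 was found for endothelial Vegfb at 7 d, 2.97 for Flt1 in Cluster 7 between genotypes at 14 d, and 0.44 after injury and −0.14 between genotypes for neuronal Flt1. Leaving out single mice, that Cluster 7 difference ran from −5.51 to 0.82. Every call without 1 mouse was Flt1 in Cluster 7, in 1 of 15 fits after injury and 7 of 15 between genotypes. Flt1 in Cluster 7 at 14 d gave −0.093 without cells holding an endothelial UMI. Removal of shared barcodes, and the level settings without endothelial-UMI cells or shallow libraries, were chosen after seeing the data. Under some choices a class lost a group that its contrasts need, or too few mice were left, and it was not fitted. Shares of cells with a UMI in the highest cluster moved in 8 of 9 genes when cells were thinned. Protein identity was not run, for want of a protein table.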
